A study of Schizosaccharomyces pombe with 16 samples.

Results

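The genes described here lie within 80 kb of the left or the right end of chromosome III of the fission yeast Schizosaccharomyces pombe. They were chosen by position: every annotated feature of the deposited expression table on chromosome III that ended at or below base 80000, or started no more than 80000 bases before the last annotated base of that chromosome, base 2452883, except non-coding RNAs with SPNCRNA identifiers and the catalase gene ctt1. The rule took 56 of 7022 features, 26 at the left end and 30 at the right end. The left end held 17 protein-coding genes, 1 pseudogene, 7 ribosomal RNA features and 1 tRNA, and the right end held 26 protein-coding genes and 4 ribosomal RNA features. All 56 had a gene of the same identifier and strand in the RefSeq annotation of assembly ASM294v3. The largest end coordinate on chromosome III in the table equalled the length of that chromosome in the assembly.

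Strand-specific libraries of polyadenylated RNA were made from 2 biological replicates of each of 8 strains. The mutants had residues replaced in the CTD, the carboxy-terminal tail of Rpb1, the largest subunit of RNA polymerase II: tyrosine to phenylalanine (Y1F), serine to alanine (S2A and S7A) or threonine to alanine (T4A) in the heptad repeat, singly or as the doubles Y1F-S7A, S2A-S7A and T4A-S7A. The wild type (WT) was labelled rpb1CTD-WT. All 8 strains carried ade6, ura4-D18 and leu1-32 markers. S2A was h+ and the other 7 were h-, so in the comparison of S2A with WT the substitution and the mating type cannot be told apart. Cultures grew in rich YES medium at 30 °C. Libraries summed to between 18677921 and 31254978 reads, and 6420 features, among them 42 of the 56, passed the filter on low counts and were tested. The 14 that did not were the 11 ribosomal features, the tRNA gene SPCTRNAHIS.03, SPCP20C8.01c and SPCC569.01c.

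Telomeres are the protein-capped ends of chromosomes, and the genes next to them, the subtelomeric genes, are often held silent by heterochromatin, which is chromatin marked by methylation of histone H3 at lysine 9. In fission yeast the ends of chromosomes I and II carry long stretches of related subtelomeric sequence, while both ends of chromosome III carry the arrays of ribosomal DNA, so that its end genes lie on the inner side of ribosomal repeats. The heptads of the CTD are phosphorylated in changing patterns during transcription and recruit factors for capping, splicing, 3′ processing and chromatin modification.

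The outermost features of both ends were ribosomal. SPRRNA.42 (18S) began at the first base of the left end, followed by SPRRNA.47 (28S) and SPRRNA.50 (5.8S), and SPRRNA.45 (18S), SPRRNA.49 (28S) and SPRRNA.52 (5.8S) lay outermost at the right end. All 11 ribosomal features had another copy on chromosome III with at least 99.9% identity over the aligned bases. Of these 11, 10 had 0 reads in all 16 libraries. SPRRNA.52 had 4 reads in the first T4A-S7A library, 1 each in the second S2A and second S7A libraries, and 0 elsewhere. A count of 0 in a library allows up to 3 reads, for counting error alone. Libraries were made from polyadenylated RNA, and how the authors treated reads that match several places is not given in the sources used here.

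Inside of the ribosomal features, both ends carried the same small group of uncharacterized genes in mirrored order. SPCP20C8.01c (chrIII:28298-29423, minus strand) at the left end was 99.6% identical over its whole length to part of SPCC569.01c (chrIII:2434691-2436530, plus strand) at the right end, and 92.4% identical to the sequence at SPBC337.02c on chromosome II. SPCP20C8.02c (chrIII:30561-31740, minus strand) was 93.4% identical over 99.9% of its length to the sequence at SPCC569.02c (chrIII:2432505-2433520, plus strand). The pseudogene SPCP20C8.03 (chrIII:32624-33393, plus strand) matched SPCC569.03 (chrIII:2429987-2431575, minus strand) in 2 stretches with 93.3% and 95.3% identity. A stretch of 338 bases in SPCC1884.01 (chrIII:36972-38788, plus strand) was 93.2% identical to bases within SPCC569.05c and, on the other strand of the same place, SPCC569.04. Of the 45 features that were not ribosomal, 9 had such a match somewhere in the genome (at least 100 bases with at least 80% identity). Reads from these copies may have been split or shared between the ends, so single values of the copies are uncertain. The likeness went on into the sequence before the genes. The stretches shown are where the windows of 250 bases before SPCP20C8.02c and SPCC569.02c align, from chrIII:31741-31883 (minus strand) and chrIII:2432255-2432398 (plus strand) of ASM294v3, 5′ to 3′, and capitals mark bases that differ from the other copy.
SPCP20C8.02c: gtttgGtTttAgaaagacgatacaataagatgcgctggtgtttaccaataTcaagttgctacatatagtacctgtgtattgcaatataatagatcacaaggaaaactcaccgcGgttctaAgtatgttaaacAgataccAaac
SPCC569.02c: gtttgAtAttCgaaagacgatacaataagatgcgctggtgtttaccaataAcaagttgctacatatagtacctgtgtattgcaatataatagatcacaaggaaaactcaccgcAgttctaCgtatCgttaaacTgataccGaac
Of 144 aligned columns, 135 were identical. The left stretch ends at the base before its annotated gene, and the right one ends 106 bases before its gene, because the annotated starts of the copies differ.

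In WT, transcript levels were low next to the ribosomal repeats and higher further inside. Levels per length are given in RPKM (reads scaled to feature length and library size), from the values the authors deposited. SPCP20C8.01c and SPCC569.01c were listed at 0 in both WT libraries, and had 5 and 16 reads in all 16 libraries together. At the left end SPCP20C8.02c averaged 4.80 RPKM, new22 1.33 RPKM and SPCC1884.01 7.12 RPKM in WT (n = 2). At the right end SPCC569.02c averaged 2.32 RPKM, SPCC569.03 4.57 RPKM and SPCC569.04 0.874 RPKM. The highest left-end gene was rnc1, which encodes an RNA-binding protein, at 129.9 RPKM. The highest at the right end were hom2, the aspartate semialdehyde dehydrogenase of threonine and methionine synthesis, at 697.4 RPKM and rpp103, a ribosomal protein P1 gene, at 652.0 RPKM. The Spearman correlation of level with distance from the end was 0.59 over the 17 left genes and 0.47 over the 26 right genes. These are descriptions across genes of the same libraries, and neighbouring genes are not independent.

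The median WT level was 15.7 RPKM for left-end genes and 62.6 RPKM for right-end genes, beside 39.7 RPKM for 869 protein-coding genes of the rest of chromosome III and 44.8 RPKM for all 5107. The genes within 80 kb of the ends of chromosomes I and II had a median of 0.0633 RPKM. There, 66 of 100 genes lay below 1 RPKM, against 2 of 17 at the left end and 2 of 26 at the right end of chromosome III. On chromosome III the genes below 1 RPKM were SPCP20C8.01c and SPCC757.02c at the left end and SPCC569.01c and SPCC569.04 at the right end.

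**Figure D1:**
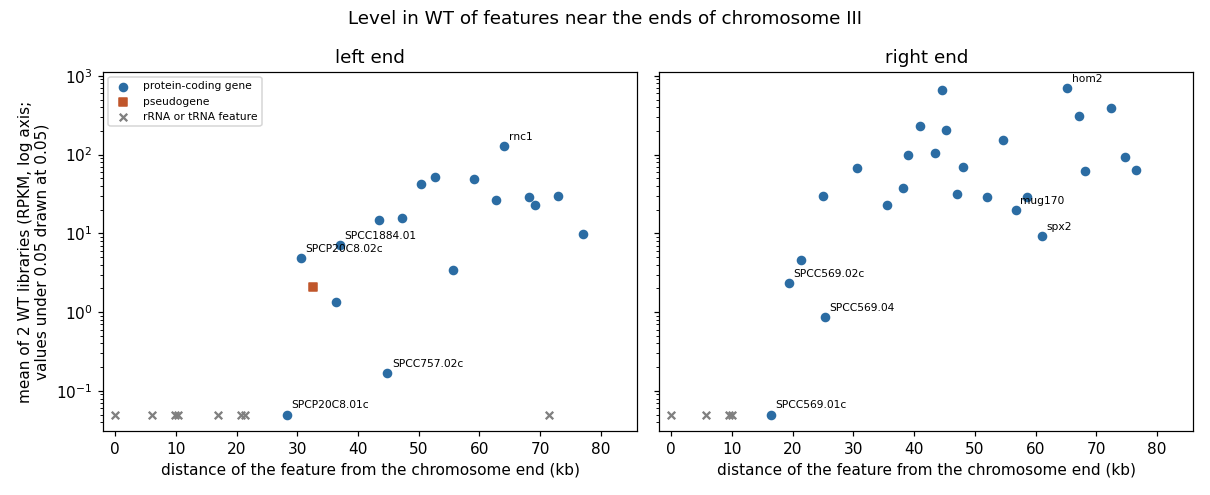
Mean RPKM of the 2 WT libraries (vertical log axis) for each feature against the distance of its nearer edge from the chromosome end in kb, with the left end in the left panel and the right end in the right panel. Ribosomal features fill the outermost part of both ends, the genes next to them lie low, and the highest levels, 129.9 RPKM for rnc1 and 697.4 RPKM for hom2, lie further inside.

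Against WT, most genes at the ends of chromosome III moved little in any of the 7 mutants. Of the 294 combinations of 42 tested genes and 7 mutants, 270 had a log2 fold change of less than 1 in size. In all, 15 combinations were called at an adjusted p under 0.05, 8 of them at the left end and 7 at the right end. The test was edgeR's quasi-likelihood test with Benjamini-Hochberg (BH) adjustment over all tested features. Over all features and the 7 mutants, 6.17% of combinations were called. The 15 combinations came from 10 genes, 4 left and 6 right. The share of all features called in at least 1 mutant was not counted, so whether 10 is many cannot be told. Only SPCC757.02c was called in 3 or more mutants. Below, rose and fell are used of genes past that threshold, levels are CPM (counts scaled to library size) and changes are log2 fold changes ± SE, mutant over WT, with n = 2 libraries per strain.

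The S2A strain had 5 called genes of 42, beside 11.9% of all features tested. Of these, 2 were higher (background 7.17%) and 3 lower (4.72%). S2A-S7A also had 5, beside 16.5% of all features, 2 higher (8.49%) and 3 lower (8.04%). T4A-S7A had 2 called genes (background 2.79%), and Y1F (2.96%), S7A (1.71%) and Y1F-S7A (7.21%) had 1 each. In T4A edgeR called 0 genes (background 0.0935%), with 6 at an unadjusted p under 0.05, and DESeq2 called 0 too (background 1.04%). With so few genes per end, these counts lie near the background share, and no test of the difference was made. The joint test over the 7 mutants called 9 genes, 3 left and 6 right, beside 22.3% of all features. Of the 3 interaction tests, which ask whether adding S7A acts differently in Y1F, S2A or T4A than in WT, none called a gene here. At an unadjusted p under 0.05 there were 9 genes for Y1F, 7 for S2A and 2 for T4A, and DESeq2 called 1 for Y1F (background 0.966%), 3 for S2A (2.65%) and 0 for T4A (0.576%). The backgrounds of the edgeR interactions were 0.0% for Y1F, 0.483% for S2A and 0.0156% for T4A.

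Libraries of the same replicate number deviated together, so each comparison was also fitted with the number as a block, and for each of the 42 genes and each mutant where it changes the call against WT, the adjusted p of that fit is given below, after the word block. That fit called 5 genes in Y1F (background 12.6%), 13 in S2A (29.4%), 0 in T4A (1.64%) and 5 in S7A (8.1%). Among the doubles Y1F-S7A had 8 genes called (24.9%), S2A-S7A 11 (37.9%) and T4A-S7A 8 (10.9%). In all, 23 genes were called with the block in at least 1 mutant, 8 left and 15 right. The same share over all features was not counted, so whether 23 is many cannot be told. Over all features and mutants, the block fit called 17.9% of combinations. In the joint test the block fit called 28 genes (background 57.9%), and in the interactions 1 gene for Y1F (1.15%), 5 for S2A (3.64%) and 0 for T4A (0.374%). Named after these values were seen, the gene for Y1F was SPCC569.09, and those for S2A were SPCP20C8.02c, pcy1, ppk38, SPCC569.09 and SPCC569.07. DESeq2, without the block, called 5 genes in Y1F (background 6.82%), 7 in S2A (17.2%), 3 in S7A (4.69%) and 3 in Y1F-S7A (13.0%). It called 6 in S2A-S7A (22.2%), 5 in T4A-S7A (5.95%) and 20 in the joint test (38.4%).

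**Figure D2:**
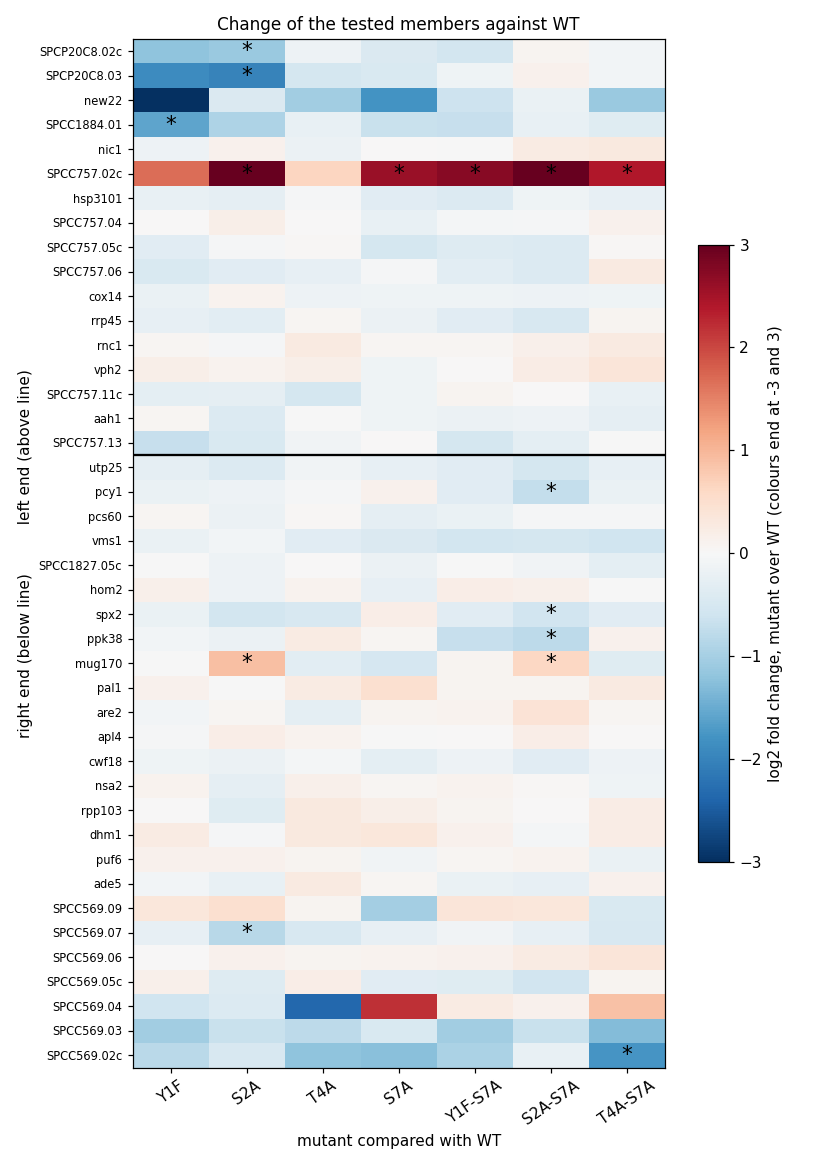
Log2 fold change of each mutant over WT (columns) for the 42 tested genes (rows), with the left end above the line from the chromosome end inward and the right end below it running outward to the chromosome end. Stars mark the 15 combinations called at an adjusted p under 0.05. SPCC757.02c stands out as a row of increases, and most other rows are pale.

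At the ends of chromosomes I and II, larger shares of features were called. Of 54 features tested there, 17 were called in S2A (31.5%) and 22 in S2A-S7A (40.7%), and 15 and 19 of these were higher than in WT. The median log2 fold change at the ends of chromosome III was -0.18 in S2A and -0.09 in S2A-S7A. At the ends of I and II it was 0.72 and 1.08, and over all features -0.01 in S2A and 0.00 in S2A-S7A. In the joint test 35 of the 54 features at the ends of I and II were called (64.8%), against 9 of 42 at the ends of chromosome III (21.4%) and 163 of 873 in the rest of chromosome III (18.7%). The filter on low counts kept 54 of 112 features at the ends of I and II. A feature near 0 in WT passed it only if enough mutant libraries held reads. The shares and medians there may thus be raised in part by the filter. All these shares rest on the same WT libraries and describe sets of neighbouring genes, and the difference between them was not tested.

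**Figure D3:**
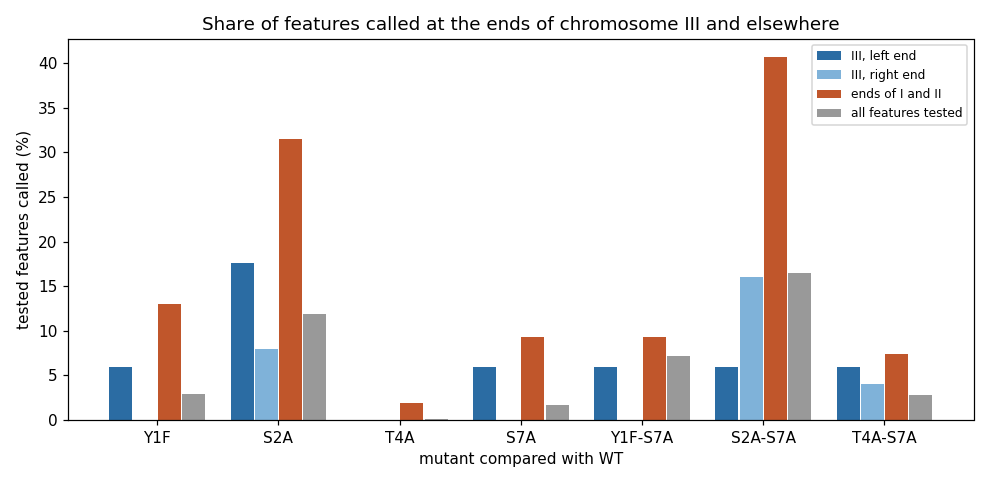
Share of tested features called in each mutant against WT (bars start at 0) for the left end of chromosome III (17 features), its right end (25), the ends of chromosomes I and II (54) and all 6420. The tallest bars are those of the ends of I and II in S2A (31.5%) and S2A-S7A (40.7%), while a bar of 5.88% at the left end is 1 gene. Features near 0 in WT were tested only if enough mutant libraries held reads.

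SPCC757.02c, annotated in RefSeq as an epimerase-like protein (an enzyme class that inverts a stereocentre of a sugar or similar substrate), had the largest called changes. Its feature (chrIII:44814-46961, minus strand) lies wholly inside that of nic1 (chrIII:43480-46985, plus strand), on the opposite strand. It had 6.55 and 6.23 CPM in S2A and 6.07 and 10.4 CPM in S2A-S7A, against 0.137 and 0.559 CPM in WT. S7A had 2.13 and 2.16 CPM, Y1F-S7A 2.54 and 2.21 CPM and T4A-S7A 1.85 and 1.95 CPM. Y1F had 1.31 and 0.981 CPM and T4A 0.715 and 0.359 CPM. Every mutant library except the second of T4A lay above both WT libraries, which held 3 and 13 reads of this gene. In bulk cultures, a change in the share of cells expressing a gene and a change in RNA per cell cannot be told apart.

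SPCC757.02c rose by 4.16 ± 0.52 in S2A (adjusted p = 0.000288, edgeR, BH) and by 4.53 ± 0.52 in S2A-S7A (adjusted p = 0.000234). It rose by 2.59 ± 0.52 in S7A (adjusted p = 0.0315), by 2.74 ± 0.52 in Y1F-S7A (adjusted p = 0.00932) and by 2.41 ± 0.52 in T4A-S7A (adjusted p = 0.0295). The estimates in Y1F (1.68) and T4A (0.65) were not called by edgeR. DESeq2 called the gene in Y1F (adjusted p = 0.0344) but not in T4A (adjusted p = 0.908). In the joint edgeR test the adjusted p of SPCC757.02c was 0.000258. The size of its changes depended on which WT library was kept. In S2A the change was 3.50 without WT 1 and 5.49 without WT 2. The same fits gave 3.87 and 5.85 in S2A-S7A and 1.93 and 3.92 in S7A. The S2A and S2A-S7A calls held with any 1 of the 4 libraries left out. The S7A and T4A-S7A calls held without WT 2 alone, with adjusted p-values up to 0.169 and 0.172 in the other leave-outs, and the Y1F-S7A call was lost without WT 1 (adjusted p = 0.0565).

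The level of SPCC757.02c was low beside that of nic1, which encodes a nickel and cobalt transporter of the plasma membrane. The nic1 gene had 65.0 and 43.7 CPM in S2A and 71.0 and 47.7 CPM in S2A-S7A, against 56.5 and 43.6 CPM in WT. The groups overlapped, and nic1 was not called in any mutant (log2 fold changes between -0.17 and 0.30). The 250 bases before SPCC757.02c, chrIII:46962-47211 on the minus strand, are shown because this gene changed in the most strains. Capitals mark the match to the TATA box letters TATAAA.
SPCC757.02c: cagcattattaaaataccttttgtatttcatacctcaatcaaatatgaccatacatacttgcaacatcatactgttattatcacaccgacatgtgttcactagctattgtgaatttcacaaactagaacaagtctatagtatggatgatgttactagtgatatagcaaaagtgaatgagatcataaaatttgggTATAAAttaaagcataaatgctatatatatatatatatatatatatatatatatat
The match begins 56 bases before the annotated start and is followed by a run of alternating t and a. TATAAA, on either strand, occurred in 45.5% of 5106 windows of 250 bases before protein-coding genes, and in 22 of the 43 windows here.

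The other gene that rose, mug170, lies at the right end (SPCP1E11.03, chrIII:2394675-2396196, plus strand). It encodes a membrane adaptor of the arrestin family, proteins that direct the sorting of membrane proteins, and its name marks a group of meiotically upregulated genes. Its level was 52.9 and 45.0 CPM in S2A and 39.2 and 41.7 CPM in S2A-S7A, against 27.5 and 25.0 CPM in WT. Both libraries of either strain lay above both WT libraries. It rose by 0.90 ± 0.15 in S2A (adjusted p = 0.00191) and by 0.62 ± 0.15 in S2A-S7A (adjusted p = 0.0148, edgeR, BH), and its joint adjusted p was 0.00022. The S2A call held in each of the 4 leave-outs, and the S2A-S7A call was lost without WT 2 (adjusted p = 0.111) or without S2A-S7A 2 (0.0831).

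In S7A mug170 had 19.6 and 17.4 CPM, below both WT libraries, and the edgeR estimate was -0.51 ± 0.15 (adjusted p = 0.149, with the replicate block 0.0151). T4A had 22.1 and 19.8 CPM, T4A-S7A 21.4 and 19.5 CPM, Y1F 28.4 and 23.9 CPM and Y1F-S7A 28.8 and 27.0 CPM. The mug170 feature meets that of pal1 on the opposite strand at a single base, and pal1 was not called in any mutant (log2 fold changes between -0.01 and 0.48), although in S7A its estimate of 0.48 passed with the block (0.00647). The 250 bases before mug170, chrIII:2394425-2394674 on the plus strand, are shown because forkhead factors act on many meiotic genes in fission yeast. Capitals mark 2 matches to the forkhead letters GTAAACA.
mug170: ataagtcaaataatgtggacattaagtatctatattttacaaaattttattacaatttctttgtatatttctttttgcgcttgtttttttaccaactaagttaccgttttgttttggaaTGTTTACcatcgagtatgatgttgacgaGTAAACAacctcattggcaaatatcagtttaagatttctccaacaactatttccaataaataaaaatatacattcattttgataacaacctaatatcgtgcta
The first match, on the opposite strand, begins 131 bases before the gene and the other, on the same strand, 103 bases before it. GTAAACA on either strand occurred in 14.5% of all such windows and in 7 of the 43 windows here. Another motif that was searched, the CRE core TGACGT, occurred in 4.6% of all windows and 4 of the 43, and in neither of the last windows shown. None of the matches shown overlap.

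Of the copied genes next to the ribosomal repeats, SPCP20C8.02c and the pseudogene SPCP20C8.03 at the left end fell in S2A. SPCP20C8.02c had 2.94 and 2.12 CPM in S2A and 2.95 and 1.83 CPM in Y1F, against 6.67 and 4.38 CPM in WT. All 4 mutant libraries lay below both WT libraries, as did both of Y1F-S7A (3.56 and 4.04 CPM). It fell by 1.12 on the log2 scale in S2A (SE 0.31, adjusted p = 0.0353, edgeR, BH). In Y1F the change was -1.21 ± 0.31 (adjusted p = 0.0697, with the replicate block 0.0146). The joint adjusted p of SPCP20C8.02c was 0.0425, a call lost in most fits with 1 library left out. In S2A-S7A this gene had 6.11 and 5.59 CPM, between the WT libraries, at a change of 0.08 ± 0.30.

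SPCP20C8.03 had 0.41 and 0.361 CPM in S2A and 0.387 and 0.446 CPM in Y1F, against 2.10 and 1.03 CPM in WT. These are few reads, 12 and 8 in the S2A libraries and 46 and 24 in those of WT. It fell by 2.00 in S2A (SE 0.56, adjusted p = 0.0385, edgeR, BH), and in Y1F the change was -1.89 ± 0.57 (adjusted p = 0.119, block 0.0374). The S2A calls of both left copies held without WT 2 but were lost without WT 1, S2A 1 or S2A 2 (adjusted p-values up to 0.238 for SPCP20C8.02c and 0.249 for SPCP20C8.03).

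The right-end copies had their lowest estimates in another strain, T4A-S7A. SPCC569.02c had 0.813 and 0.475 CPM in T4A-S7A, against 2.65 and 1.93 CPM in WT, and fell by 1.78 (SE 0.41, adjusted p = 0.0435, edgeR, BH). That call was lost in each of the 4 leave-outs (adjusted p from 0.0869 to 0.321). Its changes were -0.48 ± 0.39 in S2A and -0.81 ± 0.40 in Y1F, neither called. Its libraries of T4A (1.06 and 0.923 CPM), S7A (0.661 and 1.27 CPM), Y1F and Y1F-S7A also lay below both WT libraries. In T4A-S7A its left copy SPCP20C8.02c had 5.19 and 5.17 CPM, a change of -0.09 ± 0.30. SPCC569.03 was lower than both WT libraries in T4A-S7A at 3.47 and 2.01 CPM, against 8.23 and 5.37 CPM in WT, with a change of -1.29 ± 0.39 (adjusted p = 0.132, block 0.0182). In every other mutant except S7A, both libraries of SPCC569.03 also lay below both WT libraries, which are the same 2 libraries each time. How often other features lie so was not counted. Its changes of -1.04 ± 0.39 in Y1F and -1.05 ± 0.39 in Y1F-S7A passed with the block too (0.0449 and 0.027). For its left copy the estimate in T4A-S7A was -0.09 ± 0.50. Whether the copies of a pair differ in their response was not tested.

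**Figure D4:**
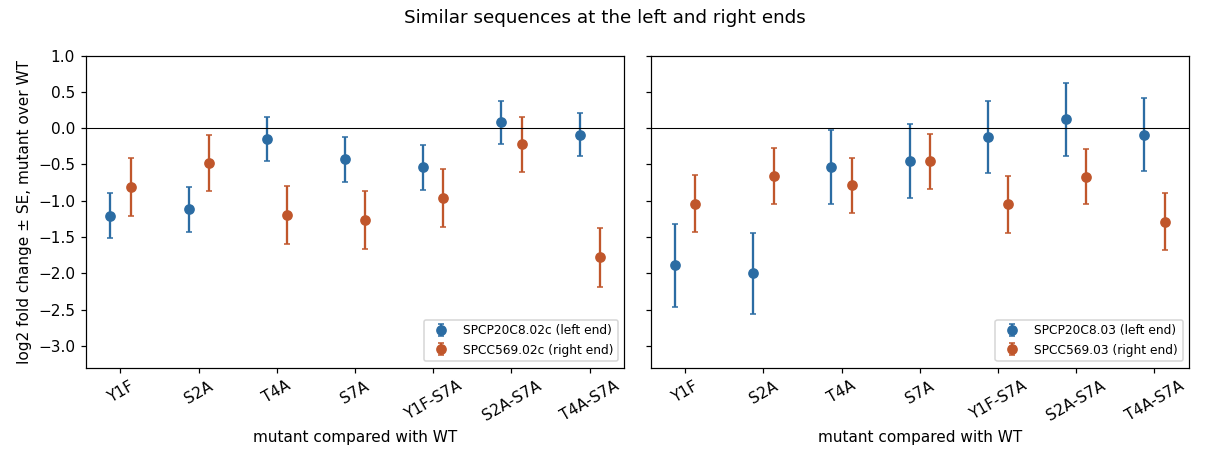
Log2 fold change ± SE of each mutant over WT for the copied pair SPCP20C8.02c and SPCC569.02c (left panel) and the pair SPCP20C8.03 and SPCC569.03 (right panel), with left-end copies in blue and right-end copies in orange. The left copies are lowest in Y1F and S2A (-1.21 and -1.12 for SPCP20C8.02c), and the right copies are lowest in T4A-S7A (-1.78 for SPCC569.02c).

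SPCC1884.01, an uncharacterized gene further inside on the left, fell in Y1F. Its level was 2.66 and 3.97 CPM in Y1F and 5.84 and 4.60 CPM in S2A, against 11.2 and 8.73 CPM in WT. Both mutants lay below WT without overlap, as did S7A, Y1F-S7A and T4A-S7A, where the gene was not called. The fall in Y1F was a change of -1.58 ± 0.29 (adjusted p = 0.0151, edgeR, BH), lost without WT 1 (0.0901) or Y1F 1 (0.134). In S2A the change was -0.93 ± 0.28 (adjusted p = 0.0532, block 0.0199), and the joint adjusted p was 0.0261. Next to it, the small gene new22 had 0 reads in both Y1F libraries and 0.0914 and 0.516 CPM in WT, too few to give a fold.

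At the right end, 3 neighbouring or nearby genes fell in S2A-S7A. The first, pcy1, encodes the enzyme that makes CDP-choline for phosphatidylcholine synthesis. It had 115.6 and 92.8 CPM in S2A-S7A, against 180.7 and 161.7 CPM in WT, a change of -0.72 ± 0.16 (adjusted p = 0.0128, edgeR, BH). In the other 6 mutants all 12 libraries were above both S2A-S7A libraries, and in S2A itself the change was -0.15 ± 0.16. The call was lost without WT 1 (0.0787) or S2A-S7A 2 (0.0952). In Y1F-S7A the change was -0.33 ± 0.16 (adjusted p = 0.27, block 0.00858).

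The kinase gene ppk38 belongs to the Ark1/Prk1 family, known in yeasts for regulating the actin cytoskeleton and endocytosis. It had 38.5 and 26.0 CPM in S2A-S7A and 39.2 and 29.7 CPM in Y1F-S7A, against 58.3 and 52.4 CPM in WT. Both doubles lay below WT without overlap, as did S2A (50.8 and 46.9 CPM). In S2A-S7A the change was -0.78 ± 0.21 (adjusted p = 0.0265, edgeR, BH) and -0.68 ± 0.21 in Y1F-S7A (adjusted p = 0.0741, block 0.00106). The third double, T4A-S7A, had 68.5 and 52.2 CPM and overlapped WT. The S2A-S7A call held without S2A-S7A 1 alone, with adjusted p-values up to 0.167 in the other leave-outs.

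The third gene, spx2, encodes a protein with SPX and EXS domains, which in other proteins bind inositol pyrophosphates and carry phosphate across membranes. Its level was 17.5 and 20.7 CPM in S2A-S7A and 17.4 and 21.6 CPM in S2A, against 26.6 and 30.0 CPM in WT. S7A was on the other side, with 31.7 and 33.0 CPM. The change was -0.57 ± 0.16 in S2A-S7A (adjusted p = 0.0335, edgeR, BH), lost in each of the 4 leave-outs (up to 0.174). In S2A it was -0.54 ± 0.16 (adjusted p = 0.0534, block 0.0037).

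SPCC569.07, an aromatic aminotransferase gene, fell in S2A. It had 29.1 and 33.7 CPM in S2A, against 55.8 and 55.9 CPM in WT, a change of -0.83 ± 0.21 (adjusted p = 0.0257, edgeR, BH). The call was lost in each of the 4 leave-outs (up to 0.182). S2A-S7A, with 37.8 and 56.6 CPM, overlapped WT. In T4A-S7A the change was -0.48 ± 0.21 (adjusted p = 0.337, block 0.0197).

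Another 2 right-end genes passed the joint test but no single comparison. Both joint calls were lost in most fits with 1 library left out. SPCC569.04 (joint adjusted p = 0.0424, edgeR, BH) had 2.02 and 2.21 CPM in S7A, against 0.32 and 0.602 CPM in WT. Every other mutant library lay at or below 1.03 CPM, and the change in S7A was 2.18 ± 0.76 (adjusted p = 0.237). This feature lies inside that of SPCC569.05c, a gene of the spermidine transporter family on the opposite strand, which had 101.5 and 90.9 CPM in S7A, against 127.3 and 118.2 CPM in WT. SPCC569.05c was lower with the block in S2A-S7A (-0.58 ± 0.21, adjusted p = 0.0828, block 0.0148). SPCC569.09 (joint adjusted p = 0.0445) had 16.8 and 12.8 CPM in S7A, against 37.4 and 23.0 CPM in WT, a change of -1.02 ± 0.32 (adjusted p = 0.17, block 0.000722). With the block it was also lower in T4A-S7A (-0.45, adjusted p = 0.0458) and higher in S2A (0.49, adjusted p = 0.0113) and S2A-S7A (0.34, adjusted p = 0.0452). Its feature overlaps that of ade5 on the same strand, so some reads may be shared, and the estimates for ade5 were at most 0.26 in size in any mutant.

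**Figure D5:**
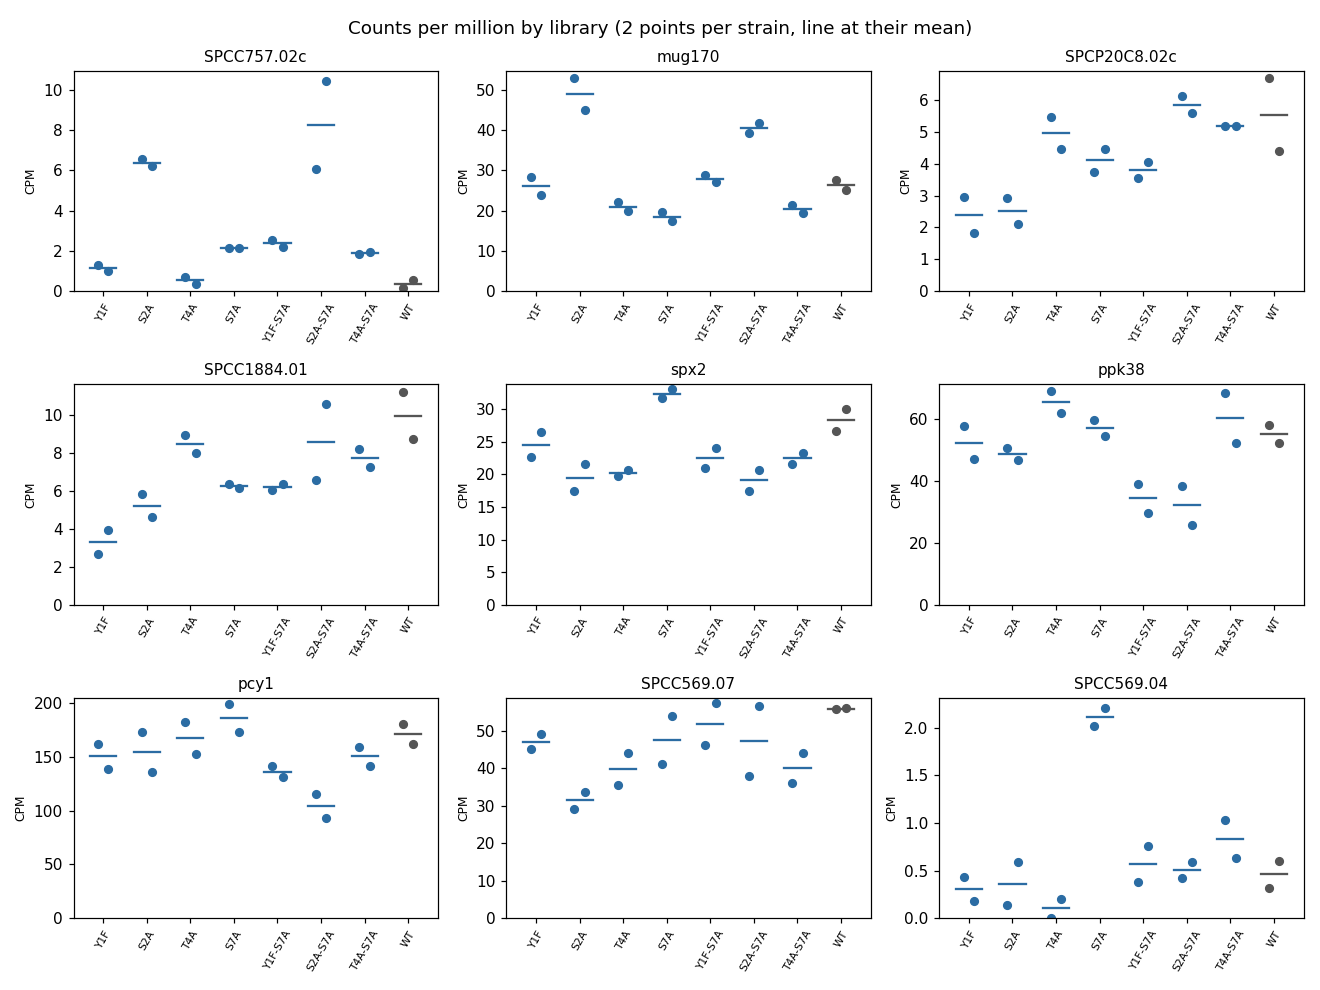
CPM in each library (points) and strain mean (lines) for 9 genes at the ends of chromosome III, with the 7 mutants in blue and WT in grey at the right of each panel. SPCC757.02c is highest in S2A and S2A-S7A, mug170 is highest in the same strains, and SPCC569.04 is highest in S7A at 2.02 and 2.21 CPM.

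The other 32 tested genes, which include both of those, were not called in any mutant without the block. Among those at the left end were genes of general cell upkeep. Changes over the 7 mutants lay between -0.47 and 0.09 for rrp45, a subunit of the RNA exosome that degrades RNA. They lay between -0.20 and 0.11 for cox14, which helps assemble cytochrome c oxidase, between -0.12 and 0.37 for vph2, an assembly factor of the vacuolar proton pump whose highest change, in T4A-S7A, passed with the block (0.0356), and between -0.03 and 0.27 for rnc1. For hsp3101, a glyoxylase that detoxifies reactive carbonyls, they lay between -0.42 and -0.04. With the block SPCC757.13, a dipeptide transporter gene, was lower in Y1F (-0.69 ± 0.19, adjusted p = 0.00558), S2A (-0.45 ± 0.19, adjusted p = 0.0256) and Y1F-S7A (-0.52 ± 0.19, adjusted p = 0.0164). The glycosyl hydrolase gene aah1 was lower in S2A (-0.41 ± 0.17, block adjusted p = 0.047), and with the block rrp45 was lower in S2A, Y1F-S7A and S2A-S7A (adjusted p = 0.0458, 0.0306 and 0.00435).

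The right end held several genes of ribosome formation, none of which was called without the block. Changes lay between -0.53 and -0.10 for utp25, which acts with the U3 RNA, between -0.27 and 0.15 for nsa2, lowest in S2A (block adjusted p = 0.0396), and between -0.36 and 0.29 for rpp103. For puf6, an RNA-binding protein of the Puf family, they lay between -0.21 and 0.14. The metabolic genes hom2, ade5 (purine synthesis) and pcs60 stayed within 0.26 of WT in size. With the block utp25 was lower in S2A, Y1F-S7A and S2A-S7A (adjusted p = 0.0153, 0.0395 and 0.00221). The gene vms1 was lower with the block in S7A and all 3 doubles, where its changes lay between -0.59 and -0.44 and adjusted p-values between 0.00232 and 0.0272. The sterol acyltransferase gene are2 was higher with the block in S2A-S7A (0.41 ± 0.27, adjusted p = 0.0256), and the uncharacterized SPCC569.06 in T4A-S7A (0.37 ± 0.24, adjusted p = 0.0186).

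Non-coding RNAs were outside the rule. Those that lie opposite a gene called without the block were looked up after those values were seen, and SPNCRNA.1294, SPNCRNA.1096 and SPNCRNA.1298 passed the filter on low counts, while prl40, also opposite spx2, did not. Those opposite other genes are not described here. SPNCRNA.1294, opposite spx2, had 42.9 and 67.3 CPM in S2A and 34.1 and 77.4 CPM in S2A-S7A, against 5.90 and 4.47 CPM in WT. It rose by 3.41 ± 0.45 in S2A (adjusted p = 0.000431), by 3.43 ± 0.45 in S2A-S7A (adjusted p = 0.000487) and by 2.28 ± 0.44 in Y1F-S7A (adjusted p = 0.00983, edgeR, BH). With the block it was also higher in Y1F (adjusted p = 0.00558) and T4A-S7A (adjusted p = 0.0108). In S2A and S2A-S7A the non-coding RNA was higher and spx2 lower than in WT. However, spx2 lay below both WT libraries in every mutant except S7A. Among them was T4A, with 19.8 and 20.7 CPM of spx2. There the non-coding RNA changed by 0.55 ± 0.43 (adjusted p = 0.897, edgeR, BH). Whether one bears on the other was not tested.

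SPNCRNA.1096, opposite SPCC1884.01, had 29.5 and 29.5 CPM in S2A and 33.3 and 56.0 CPM in Y1F, against 80.6 and 87.8 CPM in WT. It fell by 1.51 in S2A (adjusted p = 0.000573), by 0.92 in Y1F (adjusted p = 0.0378) and in Y1F-S7A (adjusted p = 0.0213), and by 0.77 in S2A-S7A (adjusted p = 0.0257, edgeR, BH). SPNCRNA.1298, opposite SPCC569.02c, had 0.614 and 0.361 CPM in S2A, against 2.70 and 1.98 CPM in WT, and fell by 2.22 there (adjusted p = 0.00533). Libraries were strand-specific per the labels, and how strand entered the counting is not given in the sources used here, so reads of opposite features may in part be shared.

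Genes known to act at telomeres and in heterochromatin were counted as a list of 36, all of them tested. The list was chosen from general knowledge, with earlier results of these data known. In S2A-S7A 7 fell and 1 rose, beside 8.04% of all features lower and 8.49% higher. Among those that fell were rap1 (a telomere protein, -0.89 ± 0.17), ers1 (-0.82 ± 0.14), stc1 (-0.90 ± 0.28), sir2 (-0.77 ± 0.24), chp1 (-0.55 ± 0.13) and rik1 (-0.50 ± 0.13). Adjusted p-values of these genes (edgeR, BH) ran from 0.00261 for ers1 to 0.0434 for stc1 and 0.0467 for sir2, near the threshold. Stc1, Ers1 and Chp1 act in RNA interference at heterochromatin, Rik1 is a subunit of the complex around the histone methyltransferase Clr4, and Sir2 is a histone deacetylase. The one that rose was bqt3 (0.38 ± 0.11), whose product is a membrane protein linked to telomere anchoring. In Y1F-S7A 2 fell, among them clr4 (-0.61 ± 0.14), beside 3.47% of all features lower. The median over the list was -0.16 in S2A-S7A and -0.11 in Y1F-S7A, beside 0.00 and -0.01 over all features.

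In the other 5 mutants edgeR called 0 of the 36, beside backgrounds of 2.96% in Y1F, 11.9% in S2A, 0.0935% in T4A, 1.71% in S7A and 2.79% in T4A-S7A. With the replicate block the list had 15 called genes in S2A-S7A (1 higher), beside 37.9% of all features, and 11 in S2A (4 higher), beside 29.4%. It had 10 in Y1F-S7A (background 24.9%), 6 in S7A (8.1%), 3 in Y1F (12.6%), 4 in T4A-S7A (2 higher, 10.9%) and 0 in T4A (1.64%). Mating type was checked with 6 genes of M cells and 3 of P cells: in S2A the M-factor gene mfm2 fell by 4.61 (SE 0.47, adjusted p = 9.15e-05, edgeR, BH), and no other of the 9 genes was called in S2A without the block. With the block the M cell genes mam1 (-0.54 ± 0.25, adjusted p = 0.00642) and mam2 (1.04 ± 0.32, adjusted p = 0.0231) were called in S2A as well. Block calls were also made in S2A-S7A, which is h-. There mam1 (-0.78 ± 0.25, adjusted p = 0.000528), the M cell gene sxa2 (-0.50 ± 0.18, adjusted p = 0.0315) and the P cell gene map3 (-0.45 ± 0.27, adjusted p = 0.0195) were lower. In S7A, also h-, 1 M cell gene was higher with the block. In T4A-S7A, which is h- like WT, mfm2 fell by 1.75 (adjusted p = 0.0401).

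At the 80 kb limit, the genes just inside were aah1 and SPCC757.13 on the left and pcy1 and utp25 on the right. Just outside lay SPCC613.01 and SPCC613.02 on the left and SPCC70.10 and pof7 on the right. SPCC613.02 fell in Y1F-S7A (-0.50 ± 0.11, adjusted p = 0.02) and in S2A-S7A (-0.68 ± 0.11, adjusted p = 0.00182, edgeR, BH), and the other 3 outside were not called in any mutant without the block. The excluded catalase gene ctt1, which breaks down hydrogen peroxide, rose in S7A by 0.86 ± 0.19 (adjusted p = 0.046) and in none of the other mutants without the block.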

How the data were processed

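The authors deposited a table of read counts per feature and library, which was the input for all tests, and log2 RPKM values per library, used for levels in WT, per the file headers. Per the submitters' processing notes the aligner was Bowtie 0.12.7. The genome build, annotation and counting tool are not given in the sources used here. Model fits used edgeR 4.0.16 (limma 3.58.1, R 4.3.3): filterByExpr by strain, TMM factors (0.911 to 1.154), and a robust quasi-likelihood model with 1 coefficient per strain over all 16 libraries (8 residual degrees of freedom, biological coefficient of variation 19.3%), tested on simulated data. Tests were two-sided. Over the 28 strain pairs, deviations from the strain mean correlated between same-numbered libraries at 0.245 to 0.667 (6420 features), so the numbers were taken to pair the samples, from the data and not from the labels. DESeq2 1.42.0, RLE factors, no filter, only the 2 strains compared, and leave-outs were alternatives. P-values rest on the spread between the 2 cultures of a strain, pooled over the 8 strains and moderated across features. Without the block, that spread includes the deviations shared by same-numbered libraries. Sequences and copies were read from RefSeq ASM294v3, in windows of 250 bases before the outermost annotated start, with motifs searched on both strands. By rule, the genes named are those nearest each end or the 80 kb limit, the 3 highest and 3 lowest called per mutant, those called in 3 or more mutants, the 6 smallest joint p-values, and copies. Other genes, given by the range of their changes, by block calls or as overlapping neighbours, were named after their values were seen. Members and lists were chosen with earlier results of these data known. One gene of the telomere and heterochromatin list is counted but not reported by name here.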

Additional observations from a re-analysis of the deposited data

How the results depend on the processing

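Counts of called genes at the ends of chromosome III stayed within 1.5 times with RLE factors and without the low-count filter. With the replicate block they were 5 in Y1F, 13 in S2A, 5 in S7A, 8 in Y1F-S7A, 11 in S2A-S7A, 8 in T4A-S7A and 28 in the joint test, 1 for the interaction with Y1F and 5 for that with S2A. DESeq2 called 5 in Y1F, 3 in S7A, 3 in Y1F-S7A, 5 in T4A-S7A, 20 in the joint test, and 1 and 3 in the interactions with Y1F and S2A. With only the 2 strains compared the counts were 0 in Y1F, S7A, Y1F-S7A and T4A-S7A, 3 in S2A and 1 in S2A-S7A, in fits with fewer samples. Those fits called 2.61% of combinations over all features and the 7 mutants. The share of all features per mutant was not counted for them or for the fits with 1 library left out. With 1 library left out, when the lone library is assumed to vary like those of other strains, they ran from 0 to 1 in Y1F, S7A, Y1F-S7A and T4A-S7A, from 2 to 4 in S2A and S2A-S7A, and from 3 to 8 in the joint test. The list of telomere and heterochromatin genes, whose alternatives were chosen after seeing the data, had 10 calls over the 7 mutants (background 6.17% of all features, pooled over the mutants), 49 with the block (17.9%), 19 with DESeq2 (10.1%), 0 with 2 strains (2.61%) and 3 to 11 with a library left out (2.7% to 5.8%), with 3 without WT 2 and 5 without WT 1 or S2A-S7A 1. The number of calls over all features thus moved with these settings too. No change reversed its sign among called genes in these alternatives. The cause of these differences was not tested. Depth limits SPCC757.02c, SPCC569.04 and the copied genes, which had few reads in some libraries.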
